A study of Mus musculus with 4 samples.

Results

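Malat1, Neat1, Miat, Snhg11 and Snhg1 are long noncoding RNAs, transcripts that work as RNA and are not known for an encoded protein. They were chosen by symbol from a list of 10 long noncoding RNAs that are abundant or well known in neural tissue, from which imprinted RNAs and X-inactivation RNAs had been left out. The count table held 5 of the 10 names among its 13289 genes. Rmst, Sox2ot, Pantr1, Dleu2 and Gas5 are not analysed here. The samples were cerebral cortex of mouse embryos at embryonic day 15 (E15), as 2 control libraries, titled WT, and 2 Lhx2 cKO libraries, in which cKO is read as conditional knockout. Lhx2 encodes a LIM-homeodomain transcription factor of cortical progenitors. The labels used here do not give the allele, the Cre driver, the strain, the sex or the litter. They also do not say whether each library came from a separate embryo. The p-values therefore speak only for these libraries, and the spread they use is in large part pooled over all genes. Whole cortex was measured, so fewer cells of a type and less RNA per cell cannot be told apart.

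Of these RNAs, Malat1, Neat1 and Miat act mostly in the nucleus. Malat1 collects in nuclear speckles, the bodies that store splicing factors, and the long form of Neat1 is the scaffold on which paraspeckles assemble. Miat, also called Gomafu, forms its own dispersed nuclear domain in neural cells and carries short repeats that match the branch point sequence bound by the splicing factor Sf1. Snhg1 and Snhg11 are host genes of small nucleolar RNAs (snoRNAs): the snoRNAs are cut from their introns, and the spliced exons remain as the noncoding RNA, which for Snhg1 is degraded by nonsense-mediated decay.

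The 3′ ends of Malat1 and Neat1 are shown because they bear on how these RNAs enter a library made from polyadenylated RNA. Malat1 and long Neat1 have no ordinary poly(A) tail: RNase P cuts them behind an A-rich tract that is encoded in the genome and that folds into a triple helix with U-rich stretches upstream. Short Neat1 has an ordinary polyadenylation signal. In the first pair of sequences the capitals mark the stretches of 16 and 13 bases that are the longest shared between both ends, and the 11 bases that close the A-rich tract. In the last sequence they mark the polyadenylation signal. The transcripts are those of GENCODE M21 (build GRCm38), written 5′ to 3′ as DNA.
Malat1, bases 6572 to 6691 of 6983: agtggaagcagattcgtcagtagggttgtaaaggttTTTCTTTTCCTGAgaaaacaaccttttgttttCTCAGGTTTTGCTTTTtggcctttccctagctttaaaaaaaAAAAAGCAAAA
Neat1 long form, bases 20652 to 20771 of 20771: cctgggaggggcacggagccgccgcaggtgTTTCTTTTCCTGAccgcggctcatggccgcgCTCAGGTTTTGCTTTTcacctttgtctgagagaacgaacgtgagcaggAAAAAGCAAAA
Neat1 short form, bases 2925 to 3004 of 3004: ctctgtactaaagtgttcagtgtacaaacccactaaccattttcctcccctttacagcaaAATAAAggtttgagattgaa

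Both shared stretches, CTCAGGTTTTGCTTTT and TTTCTTTTCCTGA, were found together in 2 of the 141767 M21 transcripts, the sense strand being searched, and these were the Malat1 and long Neat1 transcripts shown. The closing motif AAAAAGCAAAA was found in 618 transcripts, or 0.436%. The M21 model of Malat1 runs on for 292 bases behind the tract, over the small RNA mascRNA that is released from this end.

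Miat is shown by its repeats, since they are the part that sets it apart from the other members. The sequence TACTAAC occurred 6 times in the M21 transcript of 8758 bases, in a group of 3 upstream and a group of 3 downstream. Capitals mark the repeats.
Miat, bases 4518 to 4689: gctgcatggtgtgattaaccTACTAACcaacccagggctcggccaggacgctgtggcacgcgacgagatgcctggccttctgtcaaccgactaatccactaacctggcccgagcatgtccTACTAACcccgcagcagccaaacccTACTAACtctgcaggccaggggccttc
Miat, bases 5166 to 5246: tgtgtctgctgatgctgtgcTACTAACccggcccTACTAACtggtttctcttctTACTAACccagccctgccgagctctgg

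Of the 7040 M21 transcripts of at least 5000 bases, 1106, or 15.7%, held TACTAAC on the sense strand at least once, and 3, or 0.0426%, held it at least 6 times. Those 3 were transcripts of 2 genes, Miat and Slc8a1. Long Neat1 held it 1 time, and the Malat1, Snhg11 and Snhg1 transcripts searched held it 0 times.

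Total counts per library ranged from 22294237 to 24609627, so that 3 counts, taken as the floor of detection, stood for 0.122 to 0.135 CPM, counts scaled to library size. Mitochondrial transcripts took 10.02% to 12.9% of a library. Lhx2, the gene named as deleted, was at 311 and 293 CPM in control and at 244 and 241 CPM in Lhx2 cKO. That is a log2 fold change of -0.31 (edgeR's quasi-likelihood test, SE 0.0976, adjusted p 0.0191), in the direction of the labels. Lhx2 lost its call with control 1 (adjusted p 0.176), Lhx2 cKO 1 (0.102) or Lhx2 cKO 2 (0.0538) left out.

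The 5 RNAs spanned a wide range of levels in these libraries of polyadenylated RNA. How well such libraries take up Malat1 and long Neat1, which lack an ordinary poly(A) tail, was not measured. Levels of different genes are compared as CPM per kilobase of the gene length that the authors deposited. On that scale Malat1 was rank 2 of the 227 genes in the table that RefSeq types as lncRNA, Miat rank 3, Snhg1 rank 15, Snhg11 rank 99 and Neat1 rank 222. The order among the 5 was Malat1, Miat, Snhg1, Snhg11 and Neat1 in each of the 4 libraries. Mean control levels were 360 ± 172 CPM per kilobase for Malat1, 118 ± 0.175 for Miat, 20.3 ± 0.637 for Snhg1, 1.86 ± 0.157 for Snhg11 and 0.191 ± 0.000857 for Neat1 (SD, n = 2). The spread of Malat1 was wide, yet its lowest library, at 182 CPM per kilobase, lay above the highest of Miat, at 118. Deposited lengths cover all annotated exons. Divided by the 3004 bases of the short form alone, Neat1 was at 1.34 CPM per kilobase in both groups, still below Snhg11.

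**Figure D1:**
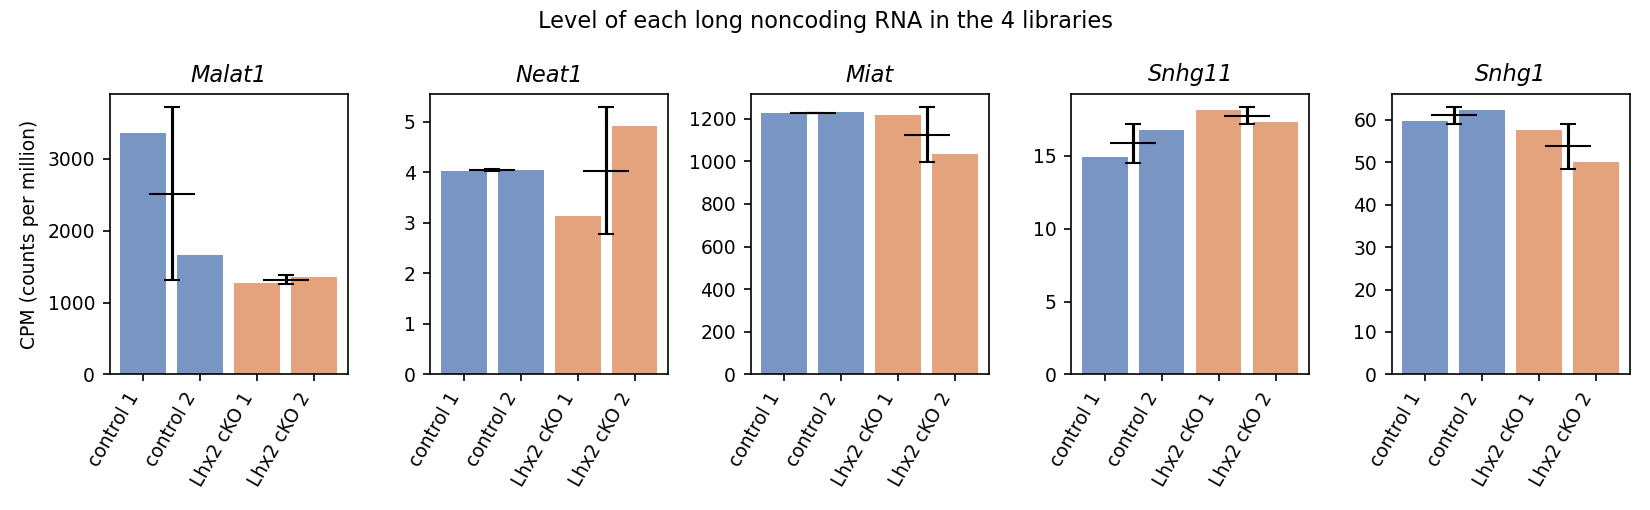
CPM of each RNA (vertical axis, linear, starting at 0, its own scale in each panel) in the control libraries (blue bars) and the Lhx2 cKO libraries (orange bars), with the mean and SD of each group in black (n = 2). The bar of Malat1 in control 1, at 3366 CPM, stands above the other 3 libraries, which lie between 1271 and 1664 CPM, and Neat1 differs most between the Lhx2 cKO libraries.

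Of the 5 RNAs, 1 passed the test between Lhx2 cKO and control, against 20.8% of all 13288 genes tested. That RNA was Malat1, and it was lower in Lhx2 cKO, as were 9.17% of all genes tested. A gene passes, or is called, when its adjusted p is under 0.05. The Lhx2 cKO libraries both lay below both control libraries for Malat1, Miat and Snhg1 and both above them for Snhg11, while for Neat1 the groups overlapped. Over all genes 28.6% lay wholly below and 28.9% wholly above. The median log2 fold change of the 5 RNAs was -0.12, beside 0.003 over all genes tested. Of the 227 genes typed as lncRNA, 35, or 15.4%, were called, 14 higher and 21 lower, with a median of 0.011.

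Malat1 (ENSMUSG00000092341.5), on chromosome 19, had 82847 and 40679 counts in the control libraries 1 and 2 and 28336 and 32095 counts in the Lhx2 cKO libraries 1 and 2. These were 3366, 1664, 1271 and 1359 CPM, or 0.337%, 0.166%, 0.127% and 0.136% of each library's counts. Control 1 stood alone, and control 2 lay nearer to the Lhx2 cKO libraries than to the other control. The group means were 2515 ± 1204 CPM in control and 1315 ± 62.5 CPM in Lhx2 cKO (SD, n = 2). The log2 fold change was -0.93 (SE 0.167, 95% interval -1.27 to -0.595, adjusted p 4.33e-05 in edgeR), with both Lhx2 cKO libraries below both controls.

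The size of that difference rested on control 1. Without control 1 the log2 fold change of Malat1 was -0.31 and the call was lost, and without control 2 it was -1.37. Each of these fits leaves 1 control library, so its test holds no spread between controls. DESeq2 with all libraries gave -0.94 without a call (adjusted p 0.23). Over the other 9 alternatives that kept all libraries the adjusted p ranged from 2.11e-14 to 2.25e-04. In the authors' deposited table Malat1 has a log2 fold change of -0.94, an adjusted p of 7.27e-07 and the mark down.

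The gap between the control libraries was itself uncommon. Malat1 was 2.02-fold higher in control 1 than in control 2, and of the 12457 genes averaging 2 CPM or more, 52, or 0.417%, had a gap as large in either direction. Counting error was far smaller than that gap, with exact 95% Poisson intervals of 3340 to 3390 CPM in control 1 and 1650 to 1680 CPM in control 2. The Lhx2 cKO libraries differed 1.07-fold. The other nuclear RNAs did not share the gap: the ratio of control 1 to control 2 was 0.998 for Miat and 0.994 for Neat1. For the summed CPM of the 9 cell marker lists, the same ratio ranged from 0.842 for oligodendrocyte precursor markers to 1.31 for red blood cell markers, and for mitochondrial transcripts it was 1.12.

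**Figure D2:**
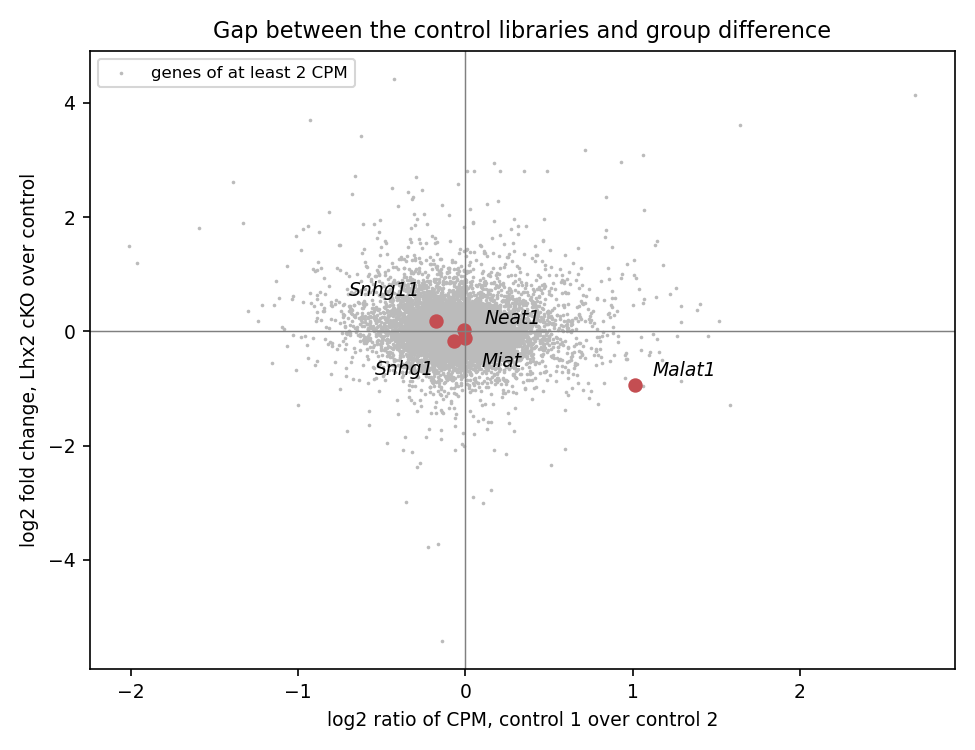
Each point is a gene of at least 2 CPM, with the log2 ratio of control 1 to control 2 on the horizontal axis and the log2 fold change of Lhx2 cKO over control on the vertical axis; the 5 RNAs are in red. Malat1 lies far to the right, at 1.02, and below 0, while the other 4 lie between -0.17 and 0 on the horizontal axis.

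Neat1 (ENSMUSG00000092274.5), the paraspeckle RNA, lies next to Malat1 on chromosome 19 and was at a far lower level in these libraries of polyadenylated RNA. It had 99 counts in each control library and 70 and 116 counts in the Lhx2 cKO libraries 1 and 2, or 4.02 and 4.05 CPM against 3.14 and 4.91 CPM. The controls were alike and lay between the Lhx2 cKO libraries, which differed 1.56-fold, a wider gap than in 96.2% of the 13288 genes tested. Neat1 was rank 11368 of these genes by mean CPM, so most of them carry less counting error. With so few counts the exact 95% Poisson intervals were 2.45 to 3.97 CPM in Lhx2 cKO 1 and 4.06 to 5.89 CPM in Lhx2 cKO 2. Those of control 1 and control 2 were 3.27 to 4.9 CPM and 3.29 to 4.93 CPM. They overlapped both Lhx2 cKO intervals and were far wider than the gap between the controls. The means were 4.04 ± 0.0181 CPM in control and 4.03 ± 1.25 CPM in Lhx2 cKO (SD, n = 2). The log2 fold change was 0.02 (SE 0.276, adjusted p 0.978 in edgeR), and its 95% interval of -0.54 to 0.57 spans 0.687-fold to 1.49-fold. Which form of Neat1 gave these reads cannot be told from a count per gene.

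Miat (ENSMUSG00000097767.10), on chromosome 5, came after Malat1 in the order per kilobase. It had 30175 and 30047 counts in control and 27094 and 24383 in Lhx2 cKO, or 1226 and 1229 CPM against 1215 and 1033 CPM. The control libraries and Lhx2 cKO 1 lay in a narrow band, and Lhx2 cKO 2 was the low one. The means were 1227 ± 1.82 CPM in control and 1124 ± 129 CPM in Lhx2 cKO (SD, n = 2). The log2 fold change of -0.12 (SE 0.112, 95% interval -0.35 to 0.11) did not pass the test (adjusted p 0.501 in edgeR). It was -0.04 with Lhx2 cKO 2 left out and -0.20 with Lhx2 cKO 1 left out.

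Snhg1 (ENSMUSG00000108414.3), on chromosome 19, holds 8 snoRNA genes within its bounds in M21. It had 1468 and 1525 counts in control and 1282 and 1180 in Lhx2 cKO, which were 59.7 and 62.4 CPM against 57.5 and 49.98 CPM. Both Lhx2 cKO libraries lay below the controls, Lhx2 cKO 1 by little. The means were 61.01 ± 1.92 and 53.7 ± 5.32 CPM (SD, n = 2). The log2 fold change was -0.17 (SE 0.1, 95% interval -0.38 to 0.03) and did not pass the test (adjusted p 0.231 in edgeR).

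Snhg11 (ENSMUSG00000044349.17), on chromosome 2, holds 2 snoRNA genes in M21, which types it as protein coding where RefSeq types it as lncRNA. It is known as a transcript of neurons. It had 367 and 411 counts in control and 405 and 410 in Lhx2 cKO, or 14.9 and 16.8 CPM against 18.2 and 17.4 CPM. It was the only one of the 5 RNAs with both Lhx2 cKO libraries above the controls. The means were 15.9 ± 1.34 and 17.8 ± 0.567 CPM (SD, n = 2). The log2 fold change of 0.17 (SE 0.142, 95% interval -0.11 to 0.46) did not pass the test (adjusted p 0.425 in edgeR). The authors' deposited table likewise marks Neat1, Miat, Snhg1 and Snhg11 as NS, with adjusted p of 1, 0.458, 0.248 and 0.507. That mark is not set by the adjusted p alone, since Lhx2 carries it too in the authors' deposited table, at an adjusted p of 0.0117 and a log2 fold change of -0.32.

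**Figure D3:**
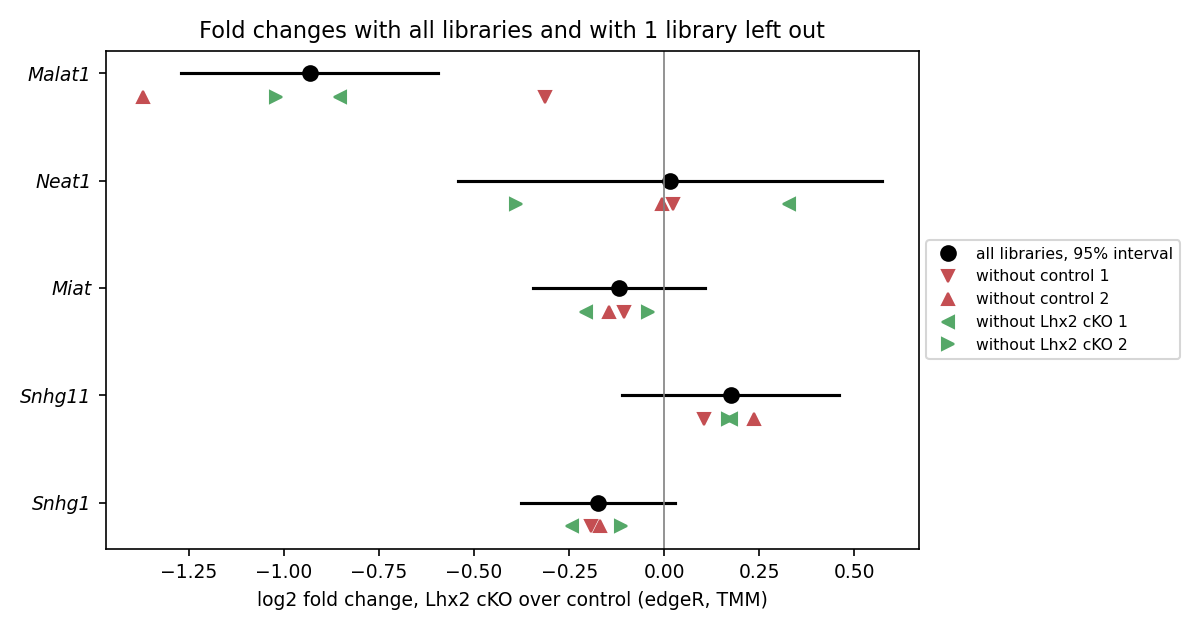
Log2 fold change of Lhx2 cKO over control for each RNA, with all libraries (black points, 95% intervals) and with 1 library left out in turn (triangles). The interval of Malat1 ends at -0.595, the intervals of the other 4 include 0, and the value of Malat1 without control 1 is -0.31.

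The genes whose products work with these RNAs were read from lists of known partners. Over all genes tested 49.5% had a fitted log2 fold change below 0, 9.17% were called lower and 11.6% were called higher. These shares are the background for the counts of signs and calls that follow. Of the 9 paraspeckle proteins, 1 was called lower, 0 were called higher, and all 9 had a value below 0, with a median of -0.16. The called gene was Dazap1, an RNA-binding protein, at 307 and 263 CPM in control and 239 and 212 CPM in Lhx2 cKO (-0.33 on the log2 scale, SE 0.101, edgeR's adjusted p 0.0149). Its call was lost without control 1 (-0.20, adjusted p 0.308) and without Lhx2 cKO 2 (-0.28, adjusted p 0.126). The core paraspeckle proteins Sfpq, Nono and Pspc1 had values of -0.24, -0.20 and -0.002, none of them called, while DESeq2 called Sfpq (adjusted p 0.0297).

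Of the 12 nuclear speckle proteins, which share their compartment with Malat1, 0 were called by edgeR, 0 had an unadjusted p under 0.05, and 0 were called by DESeq2 or limma-voom. All 12 values lay below 0, between -0.19 and -0.06, with a median of -0.13. Srrm2, a large scaffold protein of speckles, was at 1186 and 1143 CPM in control and 1107 and 922 CPM in Lhx2 cKO, and Son, the other scaffold, at 1044 and 1170 against 1092 and 902 CPM. The median of the list was -0.20 when Lhx2 cKO 1 was left out and -0.07 when Lhx2 cKO 2 was left out.

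Among the 5 listed binding partners of Miat and Rmst, 1 was called lower and 0 higher. That was Sf1, which binds the repeats printed above: it was at 354 and 319 CPM in control and 285 and 247 CPM in Lhx2 cKO (-0.33 on the log2 scale, SE 0.101, edgeR's adjusted p 0.0142). The call was lost without control 1 (-0.24, adjusted p 0.207) and without Lhx2 cKO 2 (-0.27, adjusted p 0.153). The RNA-binding proteins Qki and Celf3, both reported partners of Miat, had values of -0.10 and -0.12 and were not called. Sox2 and Hnrnpa2b1, partners of Rmst, had -0.11 and -0.12 and were not called.

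For the snoRNA host genes, the decay machinery and the other hosts were read. Of the 10 nonsense-mediated decay factors, 1 was called lower and 0 higher, with a median of -0.10. That is near the 9.17% called lower over all genes tested. The called gene was Smg6, the endonuclease of the pathway, at -0.34 on the log2 scale (SE 0.105, edgeR's adjusted p 0.0181), which lost its call without control 1 (-0.19, adjusted p 0.333) and without Lhx2 cKO 1 (-0.24, adjusted p 0.18). Of 15 other snoRNA host genes listed, 9 were tested, of which 1 was called lower and 0 higher, with a median of -0.11. Snhg18 was the called one: it was at 11.6 and 16.0 CPM in control and at 3.90 and 3.13 CPM in Lhx2 cKO. Its log2 fold change was -1.96 (SE 0.203, edgeR's adjusted p 6.36e-10). Both Lhx2 cKO libraries were far below both controls, and the value stayed between -2.16 and -1.74 under every alternative run. Snhg5 had a value of 0.06 and Snhg17 had -0.24, neither called.

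Of 23 other long noncoding RNA names listed, 13 were tested, with 1 called higher, 1 called lower and a median of 0.12, which was -0.02 without control 1. Mir124-2hg, a host gene of miR-124, the microRNA of neurons, rose from 173 and 182 CPM to 255 and 229 CPM (0.46 on the log2 scale, SE 0.0954, edgeR's adjusted p 3.73e-04). Mir9-3hg, a host gene of miR-9, a microRNA of neural progenitors and young neurons, fell from 92.0 and 99.8 CPM to 68.3 and 66.1 CPM (-0.50, SE 0.0968, adjusted p 1.31e-04). Both kept their calls under every alternative run. Mir124a-1hg, another host gene of miR-124, was at 255 and 268 CPM in control and 302 and 266 CPM in Lhx2 cKO, and it was not called (0.13, adjusted p 0.391). The abundant RNAs Tug1, Norad and Oip5os1 had values of 0.14, 0.22 and -0.18 and were not called.

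**Figure D4:**
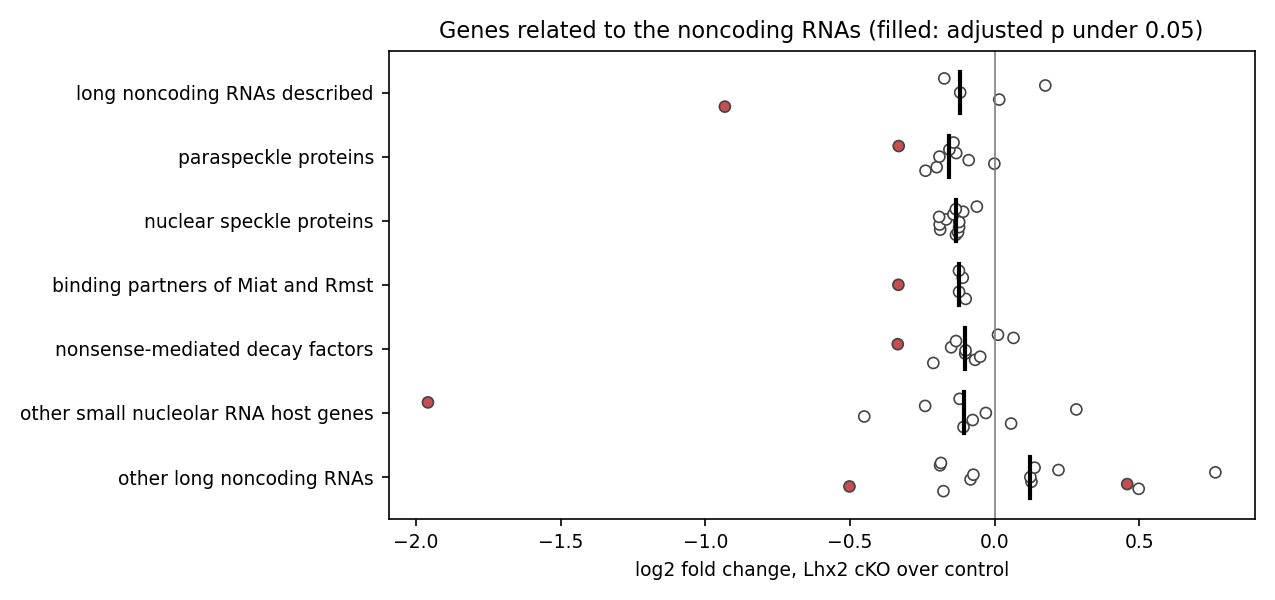
Log2 fold change of each gene (points; filled where the adjusted p is under 0.05) for the 5 RNAs and 6 lists of related genes, with the median of each list as a vertical bar. Malat1 at -0.93 and Snhg18 at -1.96 lie apart from the rest of their rows, and the 12 nuclear speckle proteins lie between -0.19 and -0.06.

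The coding genes beside the 5 RNAs were compared next, with neighbours taken from M21. Frmd8 lies beside Neat1 and was not called, with a log2 fold change of -0.04. Ltbp3, a binding protein of latent TGF-beta that lies in the same region, fell from 194 and 183 CPM to 144 and 135 CPM (-0.43, SE 0.0952, adjusted p 8.92e-04 in edgeR). Snhg11 is followed by Ralgapb, a subunit of a Ral GTPase-activating complex, which was called lower at -0.27 (SE 0.0942, adjusted p 0.0366) while Snhg11 had 0.17. Ralgapb lost its call with any 1 library left out (adjusted p 0.0841 to 0.185). The coding gene nearest to Miat is Cryba4, a crystallin gene, which was not on the list and was added after its values were seen. It was at 0.691 and 0.818 CPM in control and 2.20 and 3.26 CPM in Lhx2 cKO (1.87, SE 0.421, adjusted p 9.79e-04), and it lost its call without Lhx2 cKO 2 (adjusted p 0.0533).

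Snhg1 starts 105 bases from Slc3a2 in GRCm38 and is transcribed away from it, on the opposite strand. Slc3a2 encodes the heavy chain of amino acid transporters. It was at 168 and 200 CPM in control and 219 and 224 CPM in Lhx2 cKO, which is 0.28 on the log2 scale (SE 0.0978, edgeR's adjusted p 0.0356), beside -0.17 for Snhg1. The call of Slc3a2 was lost without control 1 (0.17, adjusted p 0.406) and without Lhx2 cKO 2 (0.22, adjusted p 0.251). On the other side Wdr74 had -0.02 and was not called. The promoter of Snhg1 is printed from RefSeq, build GRCm38.p6, chr19:8723237-8723536, plus strand, with the 250 bases before the start of Snhg1 in lower case and the first 50 bases of the gene in capitals.
Snhg1 promoter: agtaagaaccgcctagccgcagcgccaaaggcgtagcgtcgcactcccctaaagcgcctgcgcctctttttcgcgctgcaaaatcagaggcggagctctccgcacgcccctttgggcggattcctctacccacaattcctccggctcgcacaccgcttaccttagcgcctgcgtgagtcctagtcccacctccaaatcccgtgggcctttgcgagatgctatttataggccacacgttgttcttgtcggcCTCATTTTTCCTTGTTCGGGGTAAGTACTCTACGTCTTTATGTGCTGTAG

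RefSeq promoters of 300 bases were at hand for Malat1, Miat, Snhg11 and Snhg1. The letters TAATTA, the core that LIM-homeodomain factors are known to bind and which read the same on both strands, were found in 0 of these 4 and in 1738, or 5.29%, of the 32851 promoters in the table. That says only that these letters are not in these windows.

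For the names not analysed here, the listed coding neighbours gave the following values. Pou3f3, beside Pantr1, was at 849 and 885 CPM in control and 707 and 704 CPM in Lhx2 cKO and missed the threshold by little (-0.29, SE 0.107, adjusted p 0.0504 in edgeR); 7 of the 10 alternatives that kept all libraries called it, with adjusted p down to 0.00497 in DESeq2, and none of the 4 fits with 1 library left out did (adjusted p 0.0967 to 0.19). Zbtb37, beside Gas5, was called lower at -0.63 (SE 0.169, adjusted p 0.00582), a call that was lost without Lhx2 cKO 1 (adjusted p 0.059). Trim13, beside Dleu2, was called higher at 0.33 (SE 0.119, adjusted p 0.0454), and that call was lost with library totals, with DESeq2 and with any 1 library left out (adjusted p 0.0748 to 0.227). Sox2, which lies within Sox2ot, had -0.11 and Nedd1, beside Rmst, had -0.16, neither called.

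Markers of several cell types moved with the genotype, and their part in the values above was not tested. Of the 7 microglia markers, 7 were called higher, with summed levels of 107 and 109 CPM in control and 225 and 240 CPM in Lhx2 cKO. Of the 6 intermediate progenitor markers, 5 were called lower and 0 higher, with sums of 777 and 807 against 486 and 464 CPM. Of the 9 radial glia markers, 4 were called lower and 1 higher, with sums of 800 and 872 against 785 and 730 CPM. Of the 11 neuron markers, 2 were called higher and 2 lower, with sums of 6277 and 6335 against 6555 and 6521 CPM. Of the 6 oligodendrocyte precursor markers, 5 were called higher, with sums of 46.2 and 54.8 against 89.7 and 93.9 CPM. The lists of Cajal-Retzius cells and interneurons had 4 of 6 and 2 of 7 called higher and 0 lower, the vascular list 4 higher and 1 lower of 6, and the red blood cell list 1 higher and 5 lower of 6.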

How the data were processed

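RNA-seq of polyadenylated RNA was analysed from 2 control and 2 Lhx2 cKO libraries of cortex, grouped by title. The authors deposited raw read counts per gene, a gene length and their own comparison. The submitters' processing notes name Trim Galore, Subread, featureCounts, edgeR and the build mm39; versions, annotation and use of strand are not given in the sources used here. Without strand, reads of Malat1 and of Miat cannot be told from those of transcripts that M21 annotates on the opposite strand. The deposited table also holds the authors' log2 fold change and log2 CPM, p-value and adjusted p-value, and the -log10 of the latter, per the file headers. No row summed to fewer than 102 counts, as in a table filtered on low genes.

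Counts were fitted over all genes with edgeR 4.0.16 in R 4.3.3 (TMM, filterByExpr, which removed 1 gene, and the quasi-likelihood test, two-sided, Benjamini-Hochberg over 13288 genes). CPM printed are counts over library totals, and SDs are over 2 libraries. SE is the absolute log2 fold change over the square root of F, and 95% intervals use 40.7 degrees of freedom. Of these, 38.7 come from the spread pooled over all genes, so p and SE of a gene reflect its own libraries only in part. The fit was tested on simulated data with the same spread for all genes and no library that stood apart. That test therefore does not speak for a gene like Malat1, whose control libraries differ widely. The alternatives are those of the closing section, with DESeq2 1.42.0 and limma 3.58.1. The 5 RNAs, the lists and the tests were chosen with earlier results of these data known. The rule named all members found, Lhx2, up to 4 called genes per related list by smallest p, and adjacent coding genes, of which 1 is not reported here; further genes stand as examples, and markers are given by counts and sums. List names were matched by symbol or Ensembl gene; Qk matched Qki. Sequences came from GENCODE M21 and RefSeq (GRCm38), not from mm39, so no coordinates are given beyond those of the printed promoter. No molecular identifiers are stated, so the intervals and the floor speak for counting error alone.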

Additional observations from a re-analysis of the deposited data

How the results depend on the processing

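Alternatives were RLE, upper-quartile and no scaling factors, mitochondrial transcripts or the 5 RNAs left out of scaling, a minimum mean count of 50 or none, the replicate block, DESeq2, limma-voom and each library left out. Leaving out a library leaves 1 in its group, which is assumed to vary like the other group. Called genes numbered 2758; they numbered 1790 without control 1, 1633 without Lhx2 cKO 2 and 1697 at an adjusted p under 0.01, over a leave-one-out range of 1633 to 2396, and between 2170 and 2879 with all libraries. Of the 5 RNAs 1 was called, but 0 with DESeq2 and 0 without control 1 (leave-one-out range 0 to 1). Malat1 was -0.936 in DESeq2 (adjusted p 0.23) and -1.371 to -0.313 with 1 library left out, and it was below 0 throughout. Neat1 turned from 0.015 to -0.0003 with library totals, -0.013 with the replicate block and -0.026 in limma-voom, and ranged from -0.389 to 0.328 with 1 library left out: it was at -0.0064 without control 2 and -0.389 without Lhx2 cKO 2, whose own level was the higher of its group. Lhx2 ranged from -0.376 to -0.25 with 1 library left out. The cause of these shifts was not tested, except that the stricter threshold gives fewer calls by construction. Miat, Snhg1 and Snhg11 kept their direction and stayed uncalled under every alternative run.

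The deviations of same-numbered libraries had a correlation of -0.0078 over all genes, and the labels used here do not say what a shared number stands for. The fit with the replicate block called 2874 genes, Malat1 was at -0.838 (adjusted p 3.76e-05), and no other call among the 5 RNAs changed.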

Other observations

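Beside Malat1, control 1 stood above the other libraries for a set of genes, which were picked after their values were seen. Of the 9638 genes averaging 10 CPM or more, 21 were at least 1.5-fold higher in control 1 than in each of the other 3 libraries. No such count is given for the other libraries, so the number does not show that control 1 is unusual. Malat1 was among them. Soga1 was at 197 CPM in control 1 against 65.6 CPM in control 2 and 51.4 and 56.0 CPM in the Lhx2 cKO libraries. Kmt2d, a histone methyltransferase, was at 440 CPM in control 1 against 280, 226 and 231 CPM, and Sox12, a SoxC transcription factor, at 401 against 263, 225 and 233 CPM.

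The 20 other genes and Malat1 differed in base composition. The median GC content of the longest M21 transcript was 59.9% for the 20 genes, from 51.7% to 66.4%, beside 49.9% over the 9462 genes of at least 10 CPM with a transcript in M21. That of Malat1 was 42.5%. Whether base composition has a part in the level of any of these genes in control 1 was not tested.

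Gm10800, a predicted gene that was also picked after its values were seen, followed a different pattern. Its controls stood at 2099 and 858 CPM and its Lhx2 cKO libraries at 1295 and 2698 CPM, so that it was high in 1 library of each group, and the groups overlapped (0.44 on the log2 scale, SE 0.224, edgeR's adjusted p 0.163).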
